A study of Mus musculus with 14 samples.

Results

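The aminoacyl-tRNA synthetases are the enzymes that load each transfer RNA with its amino acid, and 36 of their genes were measured among 18193 genes with a probe set of 1 gene symbol. They were chosen by name alone: a letter for the amino acid followed by "ars", with or without a number or a, b or l2 at the end, and Eprs. Where a gene had several probe sets, that of the highest average signal was used. By these names 19 genes encode cytosolic enzymes and 16, whose names end in 2, mitochondrial enzymes. Tarsl2, a threonyl-tRNA synthetase-like gene that is not the mitochondrial enzyme, was kept apart from both classes.

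The arrays measured ribosome-bound RNA of mouse ventral midbrain on a log2 scale in 14 libraries. The groups were 4 libraries of Tfr1-null mice at 3 weeks of age and 3 of their controls at that age, then 3 of Tfr1-null mice at 10 weeks and 4 of controls at 10 weeks. Tfr1-null mice lacked the transferrin receptor, through which cells take up iron carried by transferrin, in dopaminergic neurons. The controls were heterozygous for the Tfr1 allele, so they were not unmodified mice. All mice were F2 offspring of 129Sv and C57BL/6 and carried RiboTag, a tagged ribosomal protein through which the ribosomes of chosen neurons, with their messenger RNA, are pulled out of a tissue lysate. The promoter that drives the deletion is not named in the labels. The series describes the ages as early and late neurodegeneration, and the comparisons ask which translated messages differ when dopaminergic neurons cannot take up iron through this receptor. The labels do not say whether the libraries of a group came from separate animals, so p-values measure only the spread between these libraries, which may be technical.

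Cytosolic and mitochondrial protein synthesis use separate sets of synthetases, nearly all of them encoded in the nucleus by separate genes. Several cytosolic enzymes sit together in the multi-tRNA synthetase complex, held by the scaffold proteins Aimp1, Aimp2 and Eef1e1. When amino acids run short or another stress activates a kinase of the initiation factor eIF2, the transcription factor Atf4 is translated and switches on amino acid transporters, amino acid synthesis and many, though not all, of the cytosolic synthetases. Atf4 binds with C/EBP partners to a composite element.

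The promoters that hold this element are shown first, because the cytosolic synthetases known as Atf4 targets carried most of the differences described after them. The element was searched as TGATGNAA on both strands in RefSeq windows of 300 bases, 250 before and 50 after a transcript's start, on build GRCm38.p6. A window was found for 27 of the 36 genes. The letters were found in 5 of 8 known Atf4 targets with a window, in 0 of 4 other cytosolic genes and in 0 of 14 mitochondrial genes, against 4.511% of 27025 genes with a window. In the wider Atf4 pathway list, described below, they were found in 4 of 24 genes with a window (16.67%). The list of known targets was set with earlier results of these data known, so its count is not independent evidence. Whether the element bears on the differences was not tested. The 140 bases from 120 before the start to 20 after it are given 5′ to 3′ along the gene, with the matches in capitals, as credited to RefSeq.
Aars: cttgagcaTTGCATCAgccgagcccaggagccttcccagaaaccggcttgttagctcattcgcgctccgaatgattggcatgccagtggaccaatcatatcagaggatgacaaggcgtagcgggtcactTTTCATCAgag
Gars: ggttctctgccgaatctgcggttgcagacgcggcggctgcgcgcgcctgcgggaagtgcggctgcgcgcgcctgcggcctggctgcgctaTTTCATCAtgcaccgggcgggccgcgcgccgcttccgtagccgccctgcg
Iars: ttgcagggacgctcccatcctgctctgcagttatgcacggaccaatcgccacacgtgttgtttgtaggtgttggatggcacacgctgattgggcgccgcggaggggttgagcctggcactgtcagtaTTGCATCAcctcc
Tars: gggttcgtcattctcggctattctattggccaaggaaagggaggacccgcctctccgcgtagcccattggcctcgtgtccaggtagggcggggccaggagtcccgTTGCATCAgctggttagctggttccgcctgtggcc
Yars: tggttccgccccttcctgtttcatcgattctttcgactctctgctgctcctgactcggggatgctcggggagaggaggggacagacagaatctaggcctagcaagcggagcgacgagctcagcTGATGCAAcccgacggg
The stretch of Aars, the alanine enzyme, is chr8:111033722-111033861 on the plus strand, with matches at -112 to -105 and at 10 to 17 counted from the start as 1. That of Gars, the glycine enzyme, is chr6:55037881-55038020 on the plus strand, with a match at -30 to -23. That of Iars, the isoleucine enzyme, is chr13:49682010-49682149 on the plus strand, with a match at 8 to 15. That of Tars, the threonine enzyme, is chr15:11399639-11399778 on the minus strand, with a match at -15 to -8. That of Yars, the tyrosine enzyme, is chr4:129189783-129189922 on the plus strand, with a match at 4 to 11, the only match in the forward letters. In Aars and Yars the start used lies inside the span that the gene table gives for the gene. Eprs, Mars1 and Sars, the other known Atf4 targets with a window, held no match in it, which says only that these letters are not in that window.

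The transferrin receptor itself was read in every library as a check of the labels. At the probe set for the middle of its transcript, which was higher in the other Tfr1-null libraries, the library labelled Tfr1-null 3 weeks 1 read 8.82, beside 10.70 to 10.98 in the other Tfr1-null libraries and 8.80 to 8.86 in the controls of that age. The library labelled control 10 weeks 1 read 11.43, beside 11.39 to 11.69 in Tfr1-null and 9.17 to 9.86 in the other controls. At the 5′ probe set, which was lower in the other Tfr1-null libraries, these libraries read 9.67 and 8.55, and the labels do not name the exons deleted. Both labels are therefore doubtful, and the source name of the first is that of a control. Each comparison was therefore made in all 14 libraries by their labels and in the 12 that remain without these 2, in 4 groups of 3. The choice of the 12 rests on the transferrin receptor, not on the synthetases, but it favours differences between the genotypes. All 8 markers of dopaminergic neurons were above the 25th percentile of their array in every library. The median over all probe sets of an array was 6.41 to 6.47 at 3 weeks and 7.36 to 7.43 at 10 weeks, so levels were not compared between the ages.

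The synthetases divided by class. At 10 weeks, with 12 libraries, 15 of the 36 genes passed the test (limma adjusted p under 0.05), where 11.1% of all genes did. The cytosolic enzymes for alanine, asparagine, cysteine, glycine, isoleucine, leucine, methionine, serine, threonine, tryptophan and tyrosine rose in Tfr1-null, as did Eprs, which serves both glutamate and proline. These were 12 of 19 cytosolic genes, with 0 lower, beside 4.73% of all genes higher and 6.34% lower. Of 16 mitochondrial genes, Iars2 rose and Yars2 and Tars2 fell. Every Tfr1-null library was above every control in 13 of 19 cytosolic and 1 of 16 mitochondrial genes, beside 9.87% of all genes, and below every control in 0 and 3, beside 12.7%. The median log2 difference, Tfr1-null minus control, was 0.66 over the cytosolic genes, -0.01 over the mitochondrial genes and -0.01 over all genes tested. Fitted on the 10-week libraries alone, without the spread of the 3-week groups, limma called 1 of the 36 genes, Cars. How many of all genes that fit called was not counted. In bulk samples such as these, fewer cells of a type and less RNA per cell cannot be told apart.

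With all 14 libraries as labelled, 1 of the 36 genes was called at 10 weeks, Iars2, where 1.21% of all genes were, 0.594% in the higher direction. Every Tfr1-null library was above every control in 7 of 19 cytosolic and 1 of 16 mitochondrial genes, beside 4.48% of all genes, and below every control in 0 of 36, beside 5.58%. The cytosolic median was 0.54, the mitochondrial median -0.10 and that of all genes -0.02. An unadjusted p under 0.05 was reached by 12 of 19 cytosolic and 4 of 16 mitochondrial genes, beside 3612 of 18193 genes. At 3 weeks limma called 0 of 36 genes with 14 libraries, where 0% of all genes were called and 0 of 36 had an unadjusted p under 0.05, beside 849 of 18193 genes. There 2 of 19 cytosolic genes had every Tfr1-null library above every control, beside 3.64% of all genes, and 2 of 16 mitochondrial genes had them below, beside 4.52%. Limma also called 0 of 36 at 3 weeks with 12 libraries, where 1.84% of all genes were called, 0.682% higher and 1.16% lower, and 10 of 36 had an unadjusted p under 0.05, beside 1934 of 18193 genes.

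**Figure D1:**
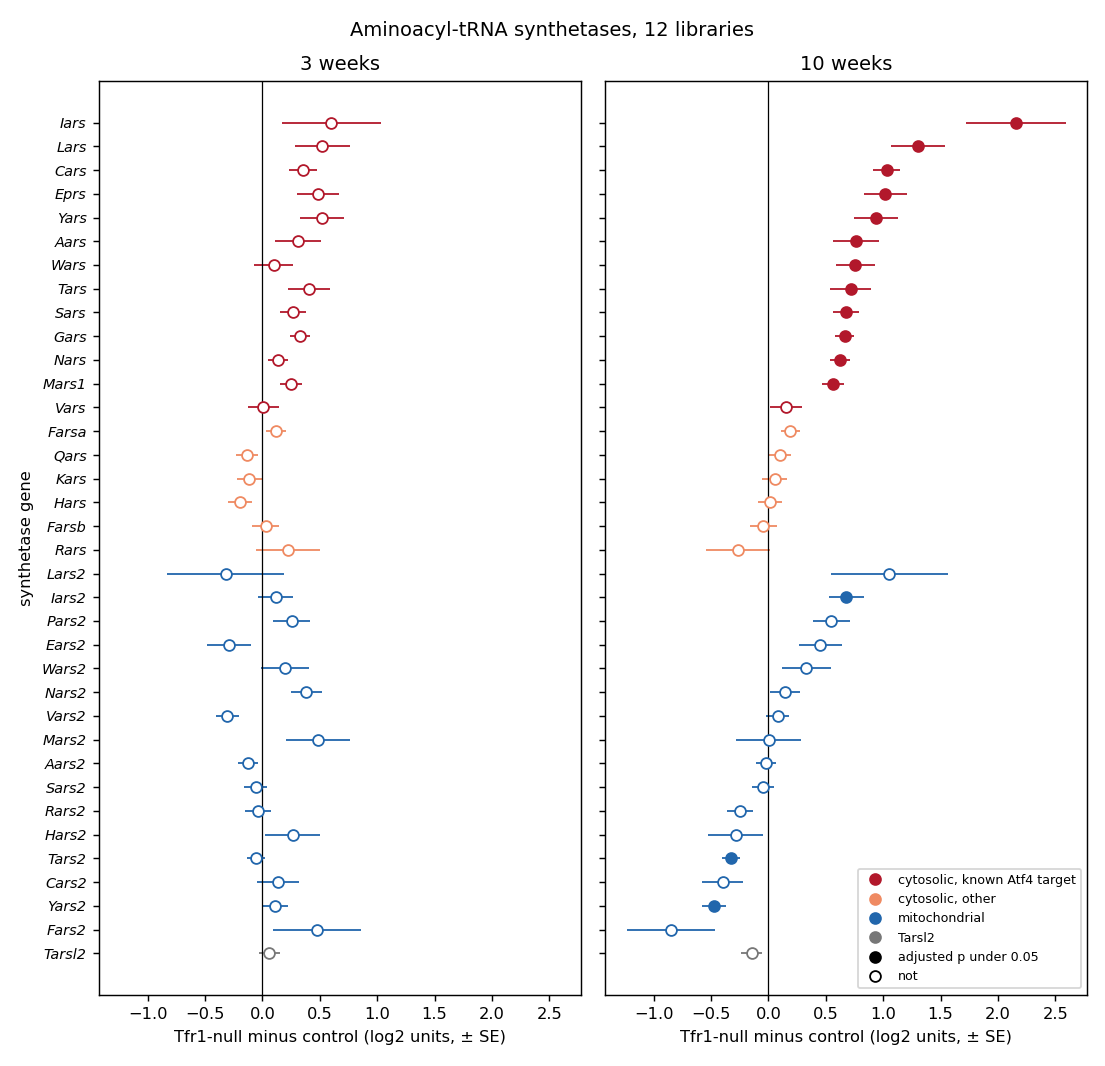
Log2 difference, Tfr1-null minus control, for each of the 36 genes at 3 weeks (left) and 10 weeks (right) in 12 libraries, with the standard error as a bar; filled symbols passed the limma test and colours mark the classes. At 10 weeks 12 of the 13 cytosolic genes known as Atf4 targets are filled and lie right of 0, while the 6 other cytosolic genes lie between -0.26 and 0.19.

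Within the cytosolic class the differences followed the split into known Atf4 targets and the rest. Of the 13 known targets, 12 rose at 10 weeks with 12 libraries and the median difference was 0.76; Vars, the valine enzyme, differed by 0.15 (SE 0.14, adjusted p = 0.534). Of the 6 others, which are both subunits of the phenylalanine enzyme (Farsa and Farsb) and the histidine, lysine, glutamine and arginine enzymes, 0 passed the test and the median was 0.03. Further probe sets of Farsa, Farsb, Hars and Qars ranged from -0.20 (Farsa) to 0.66 (Qars), with 0.39 for Hars, and none passed. The size of the split therefore depends in part on the probe sets used. The list of known targets was set with earlier results of these data known, so its count is not independent evidence of their direction. The split by the multi-tRNA synthetase complex showed no such order: 4 of 7 measured genes of the complex (Eprs, Iars, Lars and Mars1) and 8 of 12 outside it rose. Kars, Qars and Rars, the remaining measured genes of the complex, differed by 0.05, 0.10 and -0.26 and did not pass the test. Dars, the aspartate enzyme, also belongs to the complex and was not among the genes measured.

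The means of each class in each library show the same division. Over the 13 known targets the mean log2 signal was 12.18 ± 0.12 in Tfr1-null libraries and 11.30 ± 0.20 in controls at 10 weeks (SD, n = 3 each). At 3 weeks it was 11.04 ± 0.08 in Tfr1-null libraries and 10.71 ± 0.08 in controls. All 3 retained Tfr1-null libraries lay above all 3 controls at both ages. The library labelled Tfr1-null 3 weeks 1 had a mean of 10.73, within the 3-week controls, and the library labelled control 10 weeks 1 one of 11.95, above the other controls and below the Tfr1-null libraries. Gene by gene, the library labelled Tfr1-null 3 weeks 1 was nearer to the control mean than to that of the other Tfr1-null libraries in 30 of 36 genes. The library labelled control 10 weeks 1 was nearer to the Tfr1-null mean in 25 of 36 genes. Among them were 12 of the 13 known targets, 2 of the 6 other cytosolic genes and 10 of the 16 mitochondrial genes. For neither library was this counted over all genes, so these counts have no share to stand beside. Over the 6 other cytosolic genes the 10-week means were 11.89 ± 0.06 in Tfr1-null libraries and 11.88 ± 0.14 in controls, and over the 16 mitochondrial genes 8.94 ± 0.08 in Tfr1-null libraries and 8.90 ± 0.09 in controls.

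**Figure D2:**
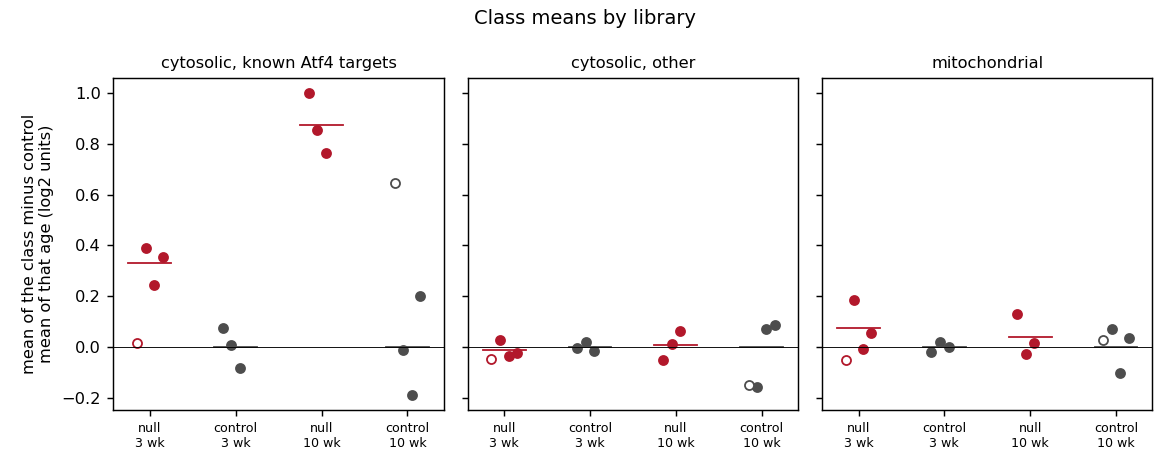
Mean log2 signal of 3 classes in each library, minus the mean of the retained controls of that age; Tfr1-null libraries stand left of controls at each age, lines are means of the retained libraries and open symbols are the libraries labelled Tfr1-null 3 weeks 1 and control 10 weeks 1. In the known Atf4 targets the retained Tfr1-null libraries sit at 0.25 to 0.39 at 3 weeks and 0.77 to 1.00 at 10 weeks, above all retained controls; the other classes overlap.

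Cars, the cysteine enzyme, had the smallest p. Its log2 signal was 10.06, 10.18 and 10.32 in Tfr1-null libraries at 10 weeks, against 9.20, 8.93 and 9.35 in controls 2 to 4 and 10.03 in the library labelled control 10 weeks 1. The Tfr1-null libraries lay close together and above every control, and the library with the doubtful label came just below them. With 12 libraries the difference was 1.03 (SE 0.12, limma adjusted p = 0.000515), or 2.04-fold, and with 14 it was 0.81 (adjusted p = 0.0665). At 3 weeks Cars read 9.29, 9.15 and 9.26 in Tfr1-null libraries 2 to 4 and 8.87 in the library labelled Tfr1-null 3 weeks 1, against 8.94, 8.92 and 8.78 in controls, a difference of 0.35 (adjusted p = 0.240) with 12 libraries. A second probe set of Cars differed by 0.14 at 10 weeks and did not pass the test.

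Gars, which encodes both the cytosolic and the mitochondrial glycine enzyme, had log2 signals of 13.44, 13.38 and 13.50 in Tfr1-null libraries at 10 weeks, against 12.89, 12.72 and 12.72 in controls 2 to 4 and 13.28 in the library labelled control 10 weeks 1. The groups did not overlap and the spread within each was small. The difference was 0.66 (SE 0.08, adjusted p = 0.000892), or 1.58-fold. Nars, the asparagine enzyme, had signals of 13.63, 13.50 and 13.65 in Tfr1-null libraries, against 13.02, 12.86 and 13.04 in controls 2 to 4 and 13.43 in the library labelled control 10 weeks 1. Its difference was 0.62 (SE 0.09, adjusted p = 0.00192), and its second probe set differed by 0.63 and also passed. Again every Tfr1-null library was above every control, with the doubtful library next below them. Sars, the serine enzyme, had signals of 13.93, 13.68 and 13.91 in Tfr1-null libraries, against 13.05, 13.38 and 13.07 in controls 2 to 4 and 13.69 in the library labelled control 10 weeks 1. The doubtful library stood among the Tfr1-null libraries here, and the other controls lay below them all. The difference was 0.67 (SE 0.11, adjusted p = 0.00421).

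Among the enzymes of the complex, Iars, the isoleucine enzyme, showed the largest difference of any synthetase, with a wide spread. Its log2 signal was 14.14, 12.68 and 12.78 in Tfr1-null libraries at 10 weeks, against 11.02, 10.17 and 11.93 in controls 2 to 4 and 12.38 in the library labelled control 10 weeks 1. Tfr1-null 10 weeks 1 stood well above the others, and no control reached the lowest Tfr1-null library. The difference was 2.15 (SE 0.43, 95% interval 1.20 to 3.11, adjusted p = 0.0109), or 4.45-fold. A second probe set of Iars differed by 0.70 and passed the test, so the size of the rise depends on the probe set while its direction does not. Lars, the leucine enzyme, had signals of 11.98, 11.25 and 11.42 in Tfr1-null libraries, against 10.42, 9.88 and 10.43 in controls 2 to 4 and 11.36 in the library labelled control 10 weeks 1. The retained groups were well apart, with the doubtful library inside the Tfr1-null range. The difference was 1.31 (SE 0.24, adjusted p = 0.00641).

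Eprs, the fused glutamate and proline enzyme, had log2 signals of 11.87, 11.95 and 11.42 in Tfr1-null libraries, against 10.38, 11.00 and 10.81 in controls 2 to 4 and 11.24 in the library labelled control 10 weeks 1. All Tfr1-null libraries lay above all controls, the doubtful library included. The difference was 1.02 (SE 0.19, adjusted p = 0.00666), and of 3 other probe sets of Eprs 1 passed, with 1.09, while the others differed by 0.70 and 0.01. Mars1, the methionine enzyme, had signals of 12.69, 12.43 and 12.60 in Tfr1-null libraries, against 12.00, 11.92 and 12.10 in controls 2 to 4 and 12.46 in the library labelled control 10 weeks 1. The doubtful library lay within the Tfr1-null range and the other controls below it. The difference was 0.56 (SE 0.10, adjusted p = 0.00513).

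The remaining cytosolic genes that passed the test lie outside the complex. Yars, the tyrosine enzyme, had log2 signals of 12.17, 12.79 and 11.95 in Tfr1-null libraries, against 11.61, 11.28 and 11.21 in controls 2 to 4 and 12.12 in the library labelled control 10 weeks 1, a difference of 0.94 (SE 0.19, adjusted p = 0.0113). Retained controls lay below all Tfr1-null libraries, and the doubtful library did not. Tars, the threonine enzyme, had signals of 10.72, 10.57 and 10.62 in Tfr1-null libraries, against 9.98, 9.44 and 10.34 in controls 2 to 4 and 10.62 in the library labelled control 10 weeks 1, a difference of 0.72 (SE 0.18, adjusted p = 0.0309). Here the controls were the more variable group. Wars, the tryptophan enzyme, had signals of 12.68, 12.67 and 12.39 in Tfr1-null libraries, against 11.47, 11.74 and 12.26 in controls 2 to 4 and 12.28 in the library labelled control 10 weeks 1, a difference of 0.76 (SE 0.17, adjusted p = 0.0177). The other probe sets of Wars differed by 0.31, -0.08 and -0.18 without passing, and the mean over all of them by 0.20 (adjusted p = 0.359), so its call rests on the brightest probe set. Aars, the alanine enzyme, ranged from 13.34 to 13.37 in Tfr1-null libraries and from 12.09 to 13.04 in controls 2 to 4, a difference of 0.76 (adjusted p = 0.0334), and its second probe set differed by 0.62 without passing (adjusted p = 0.215).

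**Figure D3:**
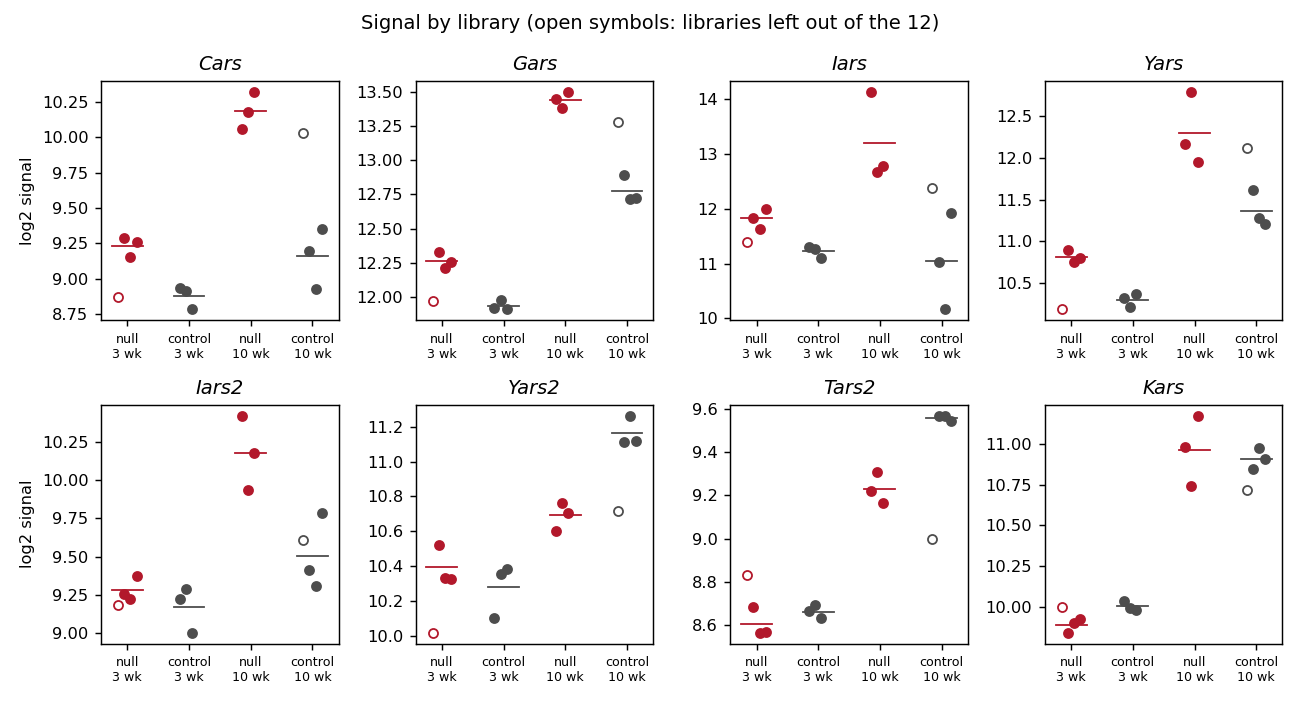
Log2 signal in each library for 5 cytosolic genes (Cars, Gars, Iars, Yars and Kars) and 3 mitochondrial genes (Iars2, Yars2 and Tars2), each on its own axis; Tfr1-null libraries stand left of controls at each age, lines are means of the retained libraries and open symbols mark the 2 libraries with doubtful labels. At 10 weeks the retained Tfr1-null libraries lie above the retained controls in Cars, Gars, Iars, Yars and Iars2, below them in Yars2 and Tars2, and overlap them in Kars.

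Iars2, the mitochondrial isoleucine enzyme, was the mitochondrial gene that rose. Its log2 signal was 10.42, 9.94 and 10.18 in Tfr1-null libraries at 10 weeks, against 9.41, 9.31 and 9.79 in controls 2 to 4 and 9.61 in the library labelled control 10 weeks 1. All Tfr1-null libraries were above all 4 controls, and the doubtful library sat among the other controls. The difference was 0.68 (SE 0.15, adjusted p = 0.0186) with 12 libraries and 0.65 (SE 0.14, adjusted p = 0.0451) with 14, and a second probe set differed by 0.69 and passed in the 12-library fit. At 3 weeks it was 9.26, 9.22 and 9.37 in Tfr1-null libraries 2 to 4 and 9.19 in the library labelled Tfr1-null 3 weeks 1, against 9.22, 9.29 and 9.00 in controls. The 3-week groups overlapped, with a difference of 0.11 (adjusted p = 0.940).

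Yars2 and Tars2, the mitochondrial tyrosine and threonine enzymes, fell. Yars2 had log2 signals of 10.60, 10.76 and 10.70 in Tfr1-null libraries at 10 weeks, against 11.11, 11.26 and 11.12 in controls 2 to 4 and 10.71 in the library labelled control 10 weeks 1, a difference of -0.48 (SE 0.11, adjusted p = 0.0169). Tars2 had signals of 9.22, 9.31 and 9.16 in Tfr1-null libraries, against 9.57, 9.57 and 9.54 in controls 2 to 4 and 9.00 in the library labelled control 10 weeks 1, a difference of -0.33 (SE 0.08, adjusted p = 0.0248). In both genes the retained controls lay above every Tfr1-null library, and the doubtful library was inside the Tfr1-null range for Yars2 and below it for Tars2. The probe sets used for Yars2 and for Fars2, described next, are of a kind that may also bind related transcripts. Second probe sets differed by -0.46 for Yars2, which did not pass, and by -0.53 for Tars2, which did. With 14 libraries the probe sets used for these genes did not pass, while the second probe set of Tars2 did (-0.47, adjusted p = 0.0487). Without Tfr1-null 10 weeks 1, neither the 2 falls nor the rise of Iars2 was called, and the 9 genes left were Cars, Eprs, Gars, Iars, Lars, Mars1, Nars, Sars and Yars, all known Atf4 targets.

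Other mitochondrial genes had large differences with a spread to match. Fars2, the phenylalanine enzyme, had the lowest difference of all members, with log2 signals of 8.74, 8.83 and 9.37 in Tfr1-null libraries, against 10.95, 9.52 and 9.02 in controls 2 to 4 and 9.74 in the library labelled control 10 weeks 1. Control 10 weeks 2 stood apart and the groups overlapped, so the difference of -0.85 (SE 0.38, adjusted p = 0.188) was not a change by the test. A second probe set of Fars2 differed by only -0.08 (limma adjusted p = 0.879), so the size of the difference depends on the probe set. Cars2, the mitochondrial cysteine enzyme, read 9.38, 9.15 and 8.79 in Tfr1-null libraries, against 9.69, 9.70 and 9.13 in controls 2 to 4 and 8.79 in the library labelled control 10 weeks 1, a difference of -0.40 (SE 0.18, adjusted p = 0.188). Both groups overlapped in Cars2 as well. Lars2, the mitochondrial leucine enzyme, read 12.08 in Tfr1-null 10 weeks 1 but 9.77 and 9.73 in the other Tfr1-null libraries, against 9.25, 9.29 and 9.87 in controls 2 to 4 and 9.12 in the library labelled control 10 weeks 1. The library that stood apart was also the highest in Iars, and the difference of 1.05 (SE 0.51, adjusted p = 0.219) did not pass the test. Further probe sets of Lars2 differed by 0.33 and 0.05 without passing. Pars2, the mitochondrial proline enzyme, differed by 0.55 (adjusted p = 0.0542) and overlapped between the groups. The other mitochondrial genes differed by -0.29 (Hars2) to 0.45 (Ears2) and did not pass, and Tarsl2 differed by -0.15 (adjusted p = 0.350). Further probe sets of these other mitochondrial genes ranged more widely, from -0.68 (Vars2) to 1.17 (Nars2), with 0.73 for Ears2, and none passed.

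The compartments were set side by side for 17 pairs of genes that serve the same amino acid. At 10 weeks the difference of the cytosolic gene exceeded that of its mitochondrial partner in 16 of 17 pairs with 12 libraries, by a median of 0.57, and in 16 of 17 with 14. Arginine was the exception with 12 libraries, with -0.26 for Rars and -0.25 for Rars2, and leucine with 14, with 1.03 for Lars and 1.14 for Lars2. The tyrosine, threonine and cysteine pairs had opposite signs, with 0.94 for Yars beside -0.48 for Yars2, 0.72 for Tars beside -0.33 for Tars2 and 1.03 for Cars beside -0.40 for Cars2. Among these pairs of separate genes, isoleucine was the only amino acid for which both rose and passed the test, by 2.15 for Iars and by 0.68 for Iars2. Both differences were positive in other pairs too, such as leucine, with 1.31 for Lars beside 1.05 for Lars2, which did not pass. At 3 weeks the cytosolic difference was the larger in 11 of 17 pairs in either set of libraries, with a median of 0.26 in the 12. Pairs share libraries and the Farsa, Farsb and Eprs pairs share a gene, so these counts are a description.

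**Figure D4:**
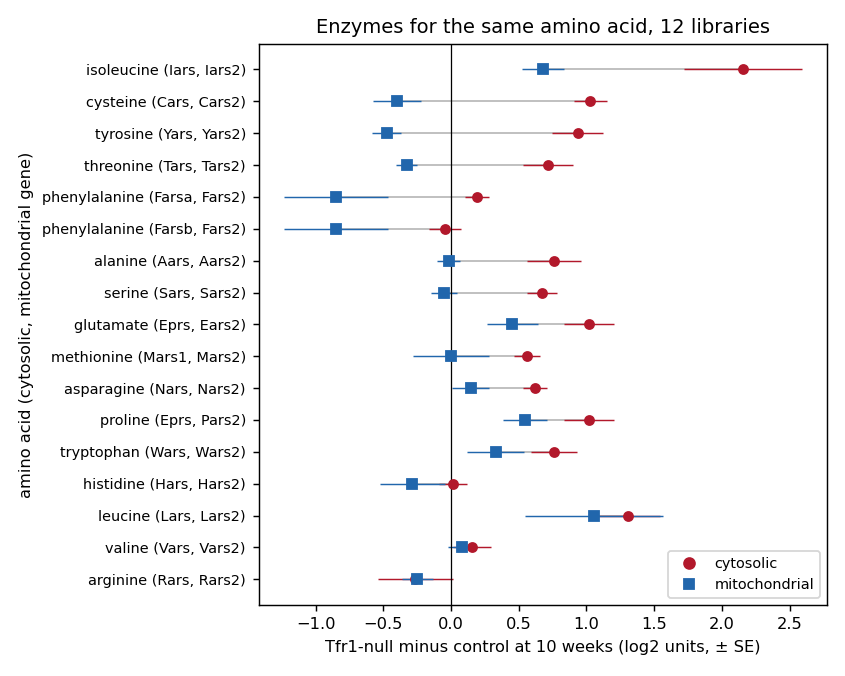
Log2 difference, Tfr1-null minus control, at 10 weeks in 12 libraries for the cytosolic (circles) and mitochondrial (squares) enzymes of the same amino acid, with standard errors as bars. The circle lies right of the square in 16 of 17 pairs. Both symbols lie right of 0 in several pairs, among them isoleucine, leucine, proline and glutamate.

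At 3 weeks the known Atf4 targets were displaced the same way without passing the test. With 12 libraries all 13 had a positive difference, with a median of 0.33, beside 0.01 over all genes tested. In 9 of the 13 every Tfr1-null library was above every control, a separation found in 13.3% of all genes. Gars came nearest to a call, with log2 signals of 12.33, 12.21 and 12.25 in Tfr1-null libraries 2 to 4 and 11.97 in the library labelled Tfr1-null 3 weeks 1, against 11.92, 11.98 and 11.91 in controls, a difference of 0.33 (SE 0.08, adjusted p = 0.100). The retained Tfr1-null libraries were above the controls, and the doubtful library was among them. Yars read 10.90, 10.76 and 10.80 in Tfr1-null libraries 2 to 4 and 10.18 in the library labelled Tfr1-null 3 weeks 1, against 10.32, 10.21 and 10.37 in controls, a difference of 0.52 (SE 0.19, adjusted p = 0.305). The doubtful library lay below every control here. The 6 other cytosolic genes had a median of -0.04 and the 16 mitochondrial genes one of 0.11, with Nars2 at 0.38 (adjusted p = 0.267) and Vars2 at -0.31 (adjusted p = 0.229) the nearest to the threshold. Fitted alone, the 3-week libraries of the 12 gave 5 called genes (Fars2, Gars, Iars, Tars and Yars), and array weights gave 7 (Cars, Eprs, Gars, Mars1, Nars2, Tars and Yars). How many of all genes either setting called was not counted, so these counts have no share to stand beside. With 14 libraries the median was 0.25 over the known targets, 0.17 over all cytosolic and 0.05 over mitochondrial genes.

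The difference at 10 weeks exceeded that at 3 weeks in all 13 known targets and in 17 of 19 cytosolic genes with 12 libraries, and in 8 of 16 mitochondrial genes. The test of the change itself, the genotype difference at 10 weeks minus that at 3 weeks, called 0 of 36 genes, where it called 0.286% of all genes, and 14 of 36 had an unadjusted p under 0.05, beside 2220 of 18193 genes. With 14 libraries it called 0 of 36, where it called 0% of all genes, and 6 of 36 had an unadjusted p under 0.05, beside 1360 of 18193 genes. The smallest adjusted p among the members was that of Cars, 0.161 for a change of 0.68. Yars2 differed by 0.11 at 3 weeks and -0.48 at 10 weeks, and Fars2 by 0.48 and -0.85, and neither passed this test. The second probe set of Fars2 differed by 0.32 and -0.08 at these ages.

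Genes that work beside the synthetases did not move as a block. Of 9 measured partners, limma called 4 at 10 weeks with 12 libraries, where it called 11.1% of all genes, and 0 with 14, where it called 1.21%. Xpot, the exportin that carries transfer RNA out of the nucleus, rose by 0.60 (SE 0.09, adjusted p = 0.00233). Eef1e1, a scaffold protein of the complex, fell by 0.74 (adjusted p = 0.00666), and Aimp1 and Aimp2 differed by -0.19 and -0.60 without passing. Pstk, a kinase of the selenocysteine transfer RNA pathway, fell by 0.45 (adjusted p = 0.0259), and Dtd1, which removes D-amino acids from transfer RNA, fell by 0.34 (adjusted p = 0.0367). Of 12 measured genes of mitochondrial aminoacylation and translation, 1 passed, a share no higher than the 11.1% of all genes. Qrsl1 fell by 1.09 (SE 0.18, adjusted p = 0.00398) and encodes a subunit of the enzyme that makes glutaminyl-tRNA in mitochondria in place of a glutamine synthetase. Gatb and Gatc, its other subunits, differed by 0.13 and -0.33. Of 6 cytosolic elongation factors 0 passed, with Eef2 at 0.29 (adjusted p = 0.0666). At 3 weeks limma called 0 genes of these 3 lists with 12 libraries, where it called 1.84% of all genes. An unadjusted p under 0.05 was reached there by 1 of 9 partners, 1 of 12 in the mitochondrial list and 2 of 6 elongation factors. Over all genes it was reached by 1934 of 18193.

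The wider Atf4 pathway is given for context only, since its rise in these libraries was known when the lists were set. With 12 libraries 14 of 26 measured genes rose and 1 fell at 10 weeks, beside 4.73% of all genes higher and 6.34% lower. At 3 weeks 11 rose and 1 fell, beside 0.682% of all genes higher and 1.16% lower, where 0 of 13 synthetases known as Atf4 targets passed. With 14 libraries 0 of 26 passed at either age. The list's median difference was 0.72 at 10 weeks and 0.64 at 3 weeks, beside 0.76 and 0.33 for the known synthetase targets. Psat1, an enzyme of serine synthesis, rose by 1.88 at 10 weeks and 1.45 at 3 weeks. Trib3, an inhibitor of Atf4 that is also its target, rose by 1.21 and 1.58 at these ages, and Eif2ak2, the eIF2 kinase that senses double-stranded RNA, fell by 0.66 and 1.07. Atf4 itself differed by 0.38 (adjusted p = 0.184) at 10 weeks and 0.34 (adjusted p = 0.549) at 3 weeks.

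Markers of cell types were read beside these results. At 10 weeks with 12 libraries limma called 2 of 8 markers of dopaminergic neurons lower, beside 6.34% of all genes. These were Ddc, by 0.32 (adjusted p = 0.0488), and Aldh1a1, by 0.28 (adjusted p = 0.0493). The 8 markers differed by -1.86 to 0.10, with 2 positive, and the marker at -1.86 was not called. An unadjusted p under 0.05 was reached by 6 of the 8, beside 4801 of 18193 genes. Of 3 GABAergic markers 1 rose, Slc32a1 by 0.70 (adjusted p = 0.0071), beside 4.73% of all genes. The markers of microglia, astrocytes, oligodendrocytes, endothelial cells and glutamatergic neurons had 0 calls at either age, and with 14 libraries no list had a call. Of the dopaminergic markers 6 of 8 had every retained Tfr1-null library below every retained control, beside 12.7% of all genes, and 7 of 8 did at 3 weeks, beside 11.6%. Their summed signal at 10 weeks, as log2, ranged from 16.48 to 16.74 in Tfr1-null libraries and from 16.83 to 16.89 in controls 2 to 4, with 16.51 in the library labelled control 10 weeks 1. At 3 weeks it ranged from 15.81 to 15.88 in Tfr1-null libraries 2 to 4, with 15.98 in the library labelled Tfr1-null 3 weeks 1, and from 15.99 to 16.04 in controls. The sum was thus lower in every retained Tfr1-null library than in every retained control at both ages. That of the GABAergic markers at 10 weeks ranged from 13.07 to 13.47 in Tfr1-null libraries and from 12.73 to 13.02 in controls 2 to 4, with 13.44 in the library labelled control 10 weeks 1, so that without this library the groups were apart with Tfr1-null higher. For the microglial markers it ranged from 11.70 to 12.64 in Tfr1-null libraries and from 11.41 to 12.12 in controls 2 to 4, with 12.90 in the library labelled control 10 weeks 1, with at most 1 of 8 markers under the 25th percentile of an array. The part of the cell mixture in the differences of the synthetases was not tested.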

How the data were processed

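The libraries were made from ribosome-bound RNA pulled down from ventral midbrain, and per the labels' protocols 50 ng of RNA was amplified with the NuGEN Ovation kit, labelled with biotin and hybridized to Affymetrix arrays. The deposited table holds log2 values of 45101 probe sets in 14 libraries, and per the submitters' processing notes the authors used RMA and Partek 6.5. The medians of the 2 ages lie apart, so the ages may have been normalized separately, which is not stated in the sources used here, and only genotype differences were tested. RMA leaves no signal near 0, and precision is limited by how few arrays there are.

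In the platform's annotation 34958 probe sets name 1 gene, 932 name several and 9211 name none. Control probe sets were left out, and for each of 18193 genes the brightest probe set on average was kept. limma 3.58.1 in R 4.3.3 (lmFit, eBayes) was fitted with 4 group means, first to the 14 libraries in the groups their titles give and then to 12, without the libraries labelled Tfr1-null 3 weeks 1 and control 10 weeks 1. The moderated test had 10 residual degrees of freedom with 14 libraries and 8 with 12. Benjamini-Hochberg adjustment ran across all genes tested, and an adjusted p under 0.05 counts as called. Where other probe sets of a gene are given, all probe sets with 1 symbol were tested each on its own, an alternative chosen after seeing the data. The script was tested on simulated data. Values in every library are given for the 14 called genes with the smallest p, for the 3 largest falls, and for the partners set beside them where described. Up to 6 called genes of a context list were named by their p, and further ones after their values were seen. The members, the lists and the left-out libraries were chosen with earlier results of these data known. Of the 36 genes 23 had over 1 probe set, 73 in all, and those used for Qars, Fars2 and Yars2 are of a kind that may also bind related transcripts. The probe sets used for Aars, Ears2, Eprs and Farsb are of another kind, whose probes may match several transcripts. All 36 were above the 25th percentile of every array.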

Additional observations from a re-analysis of the deposited data

Results flagged for a closer look

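The 36 genes and the cytosolic and mitochondrial class means, each in the 2 groups with 4 libraries, gave 76 sets of 4 values. In 2 of these a library was far from the other 3 by Dixon's criterion, and chance alone marks about 5% of sets. Both were readings of the library labelled control 10 weeks 1. Hars2, the mitochondrial histidine enzyme, read 7.64 there, beside 8.29 to 8.39 in controls 2 to 4 and 7.96 to 8.25 in Tfr1-null libraries of that age. Tars2, the mitochondrial threonine enzyme, read 9.00 there, beside 9.54 to 9.57 in controls 2 to 4 and 9.16 to 9.31 in Tfr1-null libraries. In both genes the library read lower than every other library of its age.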

How the results depend on the processing

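With 14 libraries as labelled, the count of called genes at 10 weeks was 1. It was 15 with 12 libraries, 0 with the replicate number as a block, 0 with the 10-week libraries fitted alone, 0 with array weights, 0 with the mean of a gene's probe sets, 3 with a mean-variance trend and 0 with each probe set tested on its own. Without any 1 library it ranged from 0 to 15, the highest without control 10 weeks 1. With 12 libraries the count was 15, and it was 12 with the replicate block, 1 for the 10-week libraries alone, 9 with array weights and 13 with the mean of a gene's probe sets. It ranged from 9, without Tfr1-null 10 weeks 1, to 19, without control 10 weeks 4. Without that control Cars2, Ears2, Fars2 and Pars2 were called as well. At 3 weeks the 12 libraries gave 0 calls, but 5 when fitted alone, 7 with array weights and 1, Gars, with a mean-variance trend. The other settings gave 0 at 3 weeks and for the change between the ages. The share of all genes called was counted for the main fits to 14 and 12 libraries only, so the other counts have none beside them. The cause of the shifts in these counts was not tested. Except where 1 age was fitted alone, each gene had 1 spread shared by both ages. In the 12 libraries, the class mean of the known Atf4 targets had an SD of 0.08 in both groups at 3 weeks. At 10 weeks its SD was 0.12 in Tfr1-null libraries and 0.20 in controls. Fitting fewer libraries also leaves fewer degrees of freedom.

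The cytosolic median difference minus the mitochondrial one at 10 weeks was 0.64 with 14 libraries, 0.45 to 0.67 without any 1 library and 0.47 with the mean of a gene's probe sets. With 12 libraries it was 0.67, and 0.50 to 0.69 without any 1 library. At 3 weeks it was 0.12 with 14 libraries (0.07 to 0.20) and 0.14 with 12 (0.084 to 0.27). This difference of medians kept its sign, and no called gene changed direction, under the alternatives run. Uncalled differences did turn between 14 and 12 libraries, with -0.32 and 0.14 for Nars2 at 10 weeks and -0.01 and 0.01 for Vars at 3 weeks. At 10 weeks in the 12-library fit Cars kept its call in 20 of 20 alternatives, Iars2, Wars and Yars2 in 16, Tars and Tars2 in 13 and Aars in 10. Libraries numbered 2 and 3 did not deviate together with those of the same number and age, with correlations of -0.08 to 0.04. So few libraries cannot decide whether the numbers pair the samples.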
